A study of Homo sapiens with 32 samples.

Results

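The cellular reception of TGFβ was examined through 10 genes that encode its receptors and the SMAD proteins which carry the signal into the nucleus. The genes were the type I receptors TGFBR1, ACVR1B, ACVR1 and BMPR1A, the type II receptors TGFBR2 and BMPR2, the coreceptor TGFBR3, and the transducers SMAD2, SMAD3 and SMAD4. They were listed by symbol, with no cutoff on a measured value, although earlier results of these data were known. The identifiers of all 10 were present among the 17788 genes of the count table, and all 10 were among the 14865 genes that passed the low-count filter and were tested.

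RNA-seq was carried out on MCF10A, an immortal but non-tumorigenic line of human breast epithelium, in 32 libraries that form 8 groups of 4. Wild-type (WT) cells were represented by clones 27 and 2. JUNB knock-out cells are named mut here, because CRISPR/Cas9 removed a stretch of the gene and a shortened JUNB protein is still made at a low level. They were represented by clones 1 and 65. Each clone was grown from a single cell and sampled in 2 replications, under solvent (BSA in PBS) or after 6, 24 or 72 h with TGFβ1 at 5 ng/ml, with solvent or cytokine renewed during the longer treatments. A series is the set of libraries of 1 clone and 1 replication, written as 27-1 or 65-2. Because each genotype consists of only 2 clones, p-values measure the spread between libraries of these clones.

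TGFβ binds a pair of type II receptors, which recruit and phosphorylate a pair of type I receptors. The activated type I receptor phosphorylates SMAD2 and SMAD3, and these bind SMAD4 and enter the nucleus, where they act on target genes together with partners such as the AP-1 family, of which JUNB is a subunit. In mammary epithelial cells this pathway restrains growth and drives the epithelial-mesenchymal transition, while bone morphogenetic proteins signal through a parallel set of receptors and SMADs.

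The data as a whole were checked first. Totals ranged from 39702412 to 54651906 counts per library. JUNB RNA itself, the target of the edit, stood at 89.7 to 117 CPM (counts per 1000000 of the library total) in WT under solvent and at 69.2 to 172 CPM in mut, and at 72 h at 163 to 175 CPM in WT and 122 to 359 CPM in mut. The log2 difference mut minus WT was 0.10 under solvent and 0.38 at 72 h (adjusted p = 0.885 and 0.370), so the RNA level provides no check of the genotype labels. Exons of JUNB also overlap those of HOOK2 on the opposite strand, and the libraries keep no strand information. The effect of this overlap on the JUNB counts was not tested. The 6 basal epithelial markers summed to 9020 to 10650 CPM under solvent and 10878 to 14306 CPM with TGFβ1 in WT, and to 11842 to 13030 and 11651 to 16271 CPM in mut, with no overlap between genotypes under solvent and at 6 h. Of these 6, 1 was called higher in mut under solvent (6.38% of all tested genes). At 6 h 2 were higher and 1 lower (11.3% and 10.0% of all tested genes). The 5 of 6 luminal markers in the table summed to 212 to 363 CPM in WT and 299 to 484 CPM in mut, with KRT19 at 0.314 CPM or less and ESR1 at 1.22 CPM or less. The luminal sums were likewise higher in mut without overlap under solvent and at 6 h. The 3 leukocyte markers summed to 8.93 to 24.5 CPM in WT and 5.69 to 11.4 CPM in mut, nearly all of it CD68, which was lower in mut at 72 h (log2 difference −1.02 ± 0.19, adjusted p = 7.92e-05), while PTPRC and CD3E had at most 0.0498 CPM. The 2 of 3 fibroblast markers in the table, PDGFRA and DCN, summed to 4.51 to 25.2 CPM in WT and 11.6 to 33.9 CPM in mut, nearly all of it DCN. The fibroblast sums were higher in mut without overlap at 72 h only. The part of these marker differences in the genotype differences of the 10 genes was not tested. No endothelial marker of the list was analysed here.

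The levels of the 10 genes were first compared per kilobase in WT cells under solvent, because longer genes collect more reads. TGFBR2 had by far the highest level, with 68.9 ± 8.51 RPKM (CPM per kilobase of merged exons, mean ± SD, n = 4). BMPR2 followed with 7.59 ± 0.297 RPKM, SMAD3 with 6.46 ± 1.05, ACVR1B with 6.22 ± 0.265, TGFBR1 with 5.62 ± 0.408 and SMAD4 with 4.71 ± 0.278 RPKM. TGFBR3 (3.89 ± 0.858 RPKM), BMPR1A (3.43 ± 0.426), SMAD2 (3.18 ± 0.0528) and ACVR1 (2.71 ± 0.190) were lowest. Library values of neighbours in this order overlapped, except between TGFBR2 and BMPR2, between TGFBR1 and SMAD4, and between SMAD2 and ACVR1. The place of a gene below TGFBR2 depended on the length used: with the length of the MANE Select transcript, the one reference transcript chosen per gene, SMAD4 reached 10.5 RPKM and ACVR1 8.002 RPKM, while TGFBR2 remained first with 104 RPKM. SMAD2, whose annotated exons span 36426 bases, stood at 3.35 RPKM on that scale and was then last.

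With TGFβ1, the receptors TGFBR1, ACVR1 and BMPR2 rose in WT cells at all 3 times and the coreceptor TGFBR3 fell in both genotypes. Counted together, in WT cells 3 of the 10 genes rose and 1 fell at 6 h, where 5.13% of all tested genes rose and 11.9% fell. At 24 h, 3 rose and 1 fell, beside 14.1% and 38.0% of all genes, and at 72 h 4 rose and 2 fell, beside 13.9% and 38.4%. In mut cells none rose and 2 fell at 6 h in the limma-voom fit (2.06% and 4.94% of all genes, with 1 gene higher at an unadjusted p under 0.05 and 1 called with TMM factors), 2 rose and 2 fell at 24 h (6.75% and 17.1%), and 1 rose and 1 fell at 72 h (7.81% and 16.3%). The median log2 change of the 10 genes was −0.01, −0.02 and 0.09 in WT and −0.07, −0.05 and −0.02 in mut. Scaling by library size put the median log2 change of all genes at −0.08, −0.18 and −0.19 in WT and at −0.06, −0.10 and −0.09 in mut at 6, 24 and 72 h. With TMM factors, which centre the bulk of genes near 0, the counts became 5 higher and 1 lower in WT at 72 h, 4 and 1 in WT at 6 h, and 1 and 1, 2 and 1, and 2 and 1 in mut at the 3 times. Of all 14865 tested genes, 3189 were then higher and 3459 lower in WT at 72 h, and 1042 and 919 in WT at 6 h. In mut the numbers over all genes were 416 and 306, 1376 and 1195, and 1596 and 1473.

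TGFBR1 (ENSG00000106799, chr9:99104038-99154192, plus strand, GRCh38), the type I receptor of TGFβ itself, rose in WT cells and showed the widest gap between the genotypes. In the WT libraries 27-1, 2-1, 27-2 and 2-2, it stood at 47.8, 40.2, 45.8 and 45.7 CPM under solvent, at 44.9, 60.9, 59.8 and 61.5 CPM at 6 h, at 78.4, 93.4, 82.7 and 78.6 CPM at 24 h, and at 85.0, 90.9, 68.5 and 90.2 CPM at 72 h. All WT libraries at 24 and 72 h lay above all WT solvent libraries, whereas at 6 h library 27-1 was within the solvent range. In the mut libraries 1-1, 65-1, 1-2 and 65-2, the values were 39.9, 35.0, 49.2 and 39.4 CPM under solvent, 43.9, 36.7, 38.4 and 40.2 CPM at 6 h, 52.3, 43.3, 41.9 and 44.1 CPM at 24 h, and 43.4, 38.9, 50.0 and 37.2 CPM at 72 h. These mut groups overlapped each other throughout.

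The log2 change of TGFBR1 in WT was 0.33 ± 0.11 (SE, limma-voom, adjusted p = 0.0412) at 6 h, 0.89 ± 0.11 (adjusted p = 1.26e-07) at 24 h and 0.89 ± 0.11 (adjusted p = 1.55e-07) at 72 h, and it was positive in 4 of 4 series at the later times. In mut it was −0.03 ± 0.12, 0.16 ± 0.12 and 0.06 ± 0.12, with adjusted p = 0.917, 0.334 and 0.744. The difference between these changes was tested as an interaction, in which the WT change is subtracted from the mut change. It was −0.36 ± 0.16 at 6 h (adjusted p = 0.947), −0.73 ± 0.16 at 24 h (adjusted p = 0.00500) and −0.83 ± 0.16 at 72 h (adjusted p = 0.00119). With the replications of a clone summed, which leaves 2 clones per group, the adjusted p of the interaction was 0.0506 at 24 h. The early rise in WT was the least firm of these results, since its adjusted p was 0.106 with summed replications and lay between 0.0507 and 0.134 without any 1 of the 4 WT solvent libraries or the WT 6 h libraries 2-1, 27-2 and 2-2.

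Between genotypes, TGFBR1 did not pass the test under solvent (log2 difference mut minus WT −0.14 ± 0.12, adjusted p = 0.464). It was lower in mut at 6 h (−0.51 ± 0.11, adjusted p = 0.00169), at 24 h (−0.87 ± 0.11, adjusted p = 6.39e-07) and at 72 h (−0.97 ± 0.11, adjusted p = 8.54e-08). The mean CPM at 72 h was 42.4 ± 5.69 in mut and 83.6 ± 10.4 in WT (SD, n = 4), a ratio of 0.507. At each of these 3 times the 4 mut libraries lay below the 4 WT libraries.

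ACVR1 (ENSG00000115170, chr2:157736251-157876330, minus strand), also known as ALK2, is a type I receptor of bone morphogenetic proteins and activins and shared this pattern in part. In WT libraries 27-1, 2-1, 27-2 and 2-2 it rose from 24.3, 26.1, 28.2 and 28.0 CPM under solvent to 34.1, 38.2, 34.6 and 39.1 CPM at 6 h, 44.7, 40.5, 46.9 and 48.7 CPM at 24 h and 42.8, 39.9, 41.7 and 42.2 CPM at 72 h. In mut libraries 1-1, 65-1, 1-2 and 65-2 it stood at 31.6, 27.1, 37.5 and 33.4 CPM under solvent, 32.9, 33.8, 34.7 and 35.3 CPM at 6 h, 38.6, 39.2, 33.4 and 43.3 CPM at 24 h, and 33.2, 34.0, 39.9 and 39.1 CPM at 72 h. The WT groups with TGFβ1 were separate from WT solvent at all 3 times, and the mut groups overlapped mut solvent.

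The WT log2 change of ACVR1 was 0.46 ± 0.09, 0.76 ± 0.09 and 0.65 ± 0.09 at 6, 24 and 72 h (adjusted p = 0.000616, 3.50e-08 and 6.38e-07). In mut it was 0.09 ± 0.09 (adjusted p = 0.589), 0.26 ± 0.09 (adjusted p = 0.0280) and 0.18 ± 0.09 (adjusted p = 0.121, 0.0367 without mut solvent library 1-2, and 0.0306 to 0.0408 with TMM factors, edgeR or DESeq2). The interaction was −0.51 ± 0.12 at 24 h (adjusted p = 0.00937) and −0.47 ± 0.12 at 72 h (adjusted p = 0.0124). Both missed the threshold with summed replications (adjusted p = 0.0536 and 0.0558), and that at 24 h also without series 1-2 (−0.37, adjusted p = 0.0624). The direct difference between genotypes was small and of changing sign: ACVR1 was higher in mut under solvent (0.28 ± 0.09, adjusted p = 0.0412) and lower in mut at 24 h (−0.23 ± 0.08, adjusted p = 0.0295), while at 72 h it missed the threshold (−0.19 ± 0.08, adjusted p = 0.0695) but passed with TMM factors (−0.27, adjusted p = 0.0148), edgeR (0.0174), DESeq2 (0.00833), without series 1-2 (0.0199), and without mut solvent library 65-1 or mut 72 h library 1-2 (0.0369 to 0.0480). Neither the solvent nor the 24 h call held with clone as a random replicate block (adjusted p = 0.0741 and 0.0507). The solvent call was also lost without any 1 of the WT solvent libraries 27-1, 2-1 and 27-2 or the mut solvent libraries 1-1, 1-2 and 65-2 (adjusted p between 0.0503 and 0.161), the genotype call at 24 h without the 24 h libraries 27-2, 2-2, 1-1 or 1-2 (0.0506 to 0.149), and the mut rise at 24 h without the mut solvent libraries 1-1 or 65-1 or the mut 24 h libraries 1-1, 65-1 or 65-2 (0.0588 to 0.138).

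ACVR1B (ENSG00000135503, chr12:51951699-51997078, plus strand), also known as ALK4, the type I receptor of activin and nodal, was higher in mut in all 4 states. Its CPM in WT libraries 27-1, 2-1, 27-2 and 2-2 was 36.0, 33.2, 34.8 and 36.7 under solvent, 37.3, 36.6, 31.7 and 39.3 at 6 h, 41.1, 37.6, 30.9 and 36.3 at 24 h, and 29.7, 34.2, 27.3 and 32.5 at 72 h. In mut libraries 1-1, 65-1, 1-2 and 65-2 it was 44.8, 42.9, 49.3 and 55.7 under solvent, 48.2, 52.6, 55.3 and 59.0 at 6 h, 47.2, 49.8, 50.9 and 57.6 at 24 h, and 38.0, 41.8, 48.3 and 44.9 at 72 h. The 4 mut libraries lay above the 4 WT libraries each time. The log2 difference mut minus WT was 0.45 ± 0.10 under solvent (adjusted p = 0.00202), 0.57 ± 0.09 at 6 h (adjusted p = 5.39e-05), 0.50 ± 0.10 at 24 h (adjusted p = 0.000187) and 0.49 ± 0.10 at 72 h (adjusted p = 0.000262). Each call held under every one of the 41 alternatives run. Its change with TGFβ1 lay between −0.19 and 0.16 and passed the test at no time in either genotype.

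BMPR1A (ENSG00000107779, chr10:86756596-86932825, plus strand), or ALK3, a type I receptor of bone morphogenetic proteins, passed the test in none of the 13 comparisons. It ranged from 24.4 to 40.0 CPM over the 32 libraries. Its lowest group mean, 27.1 ± 2.65 CPM (SD, n = 4), was that of mut cells at 6 h, where all 4 series were below their solvent library and the log2 change was −0.25 ± 0.10 (adjusted p = 0.136). With the series as a replicate block, which compares libraries within a series, this change was −0.25 with an adjusted p of 0.0269.

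**Figure D1:**
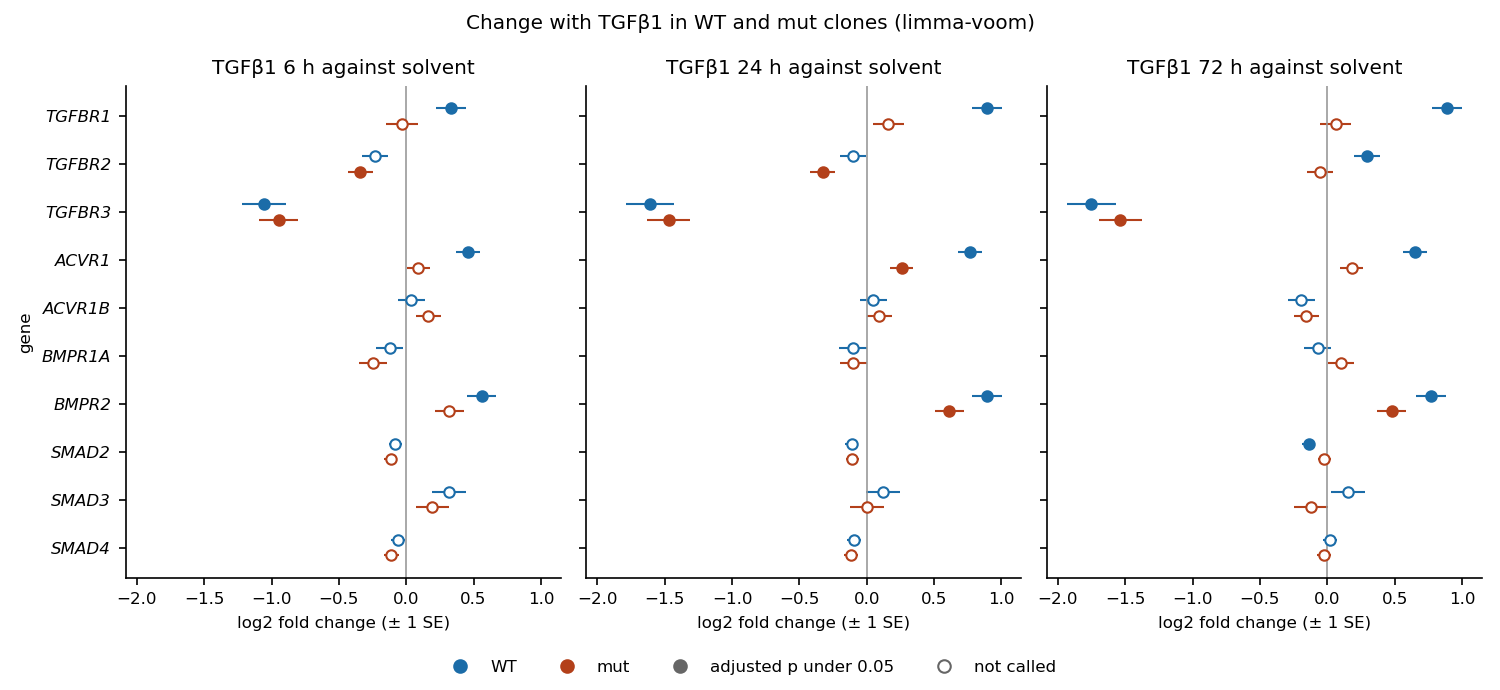
Log2 fold change (± 1 SE) of each gene at 6, 24 and 72 h with TGFβ1 against solvent, from the limma-voom fit scaled by library size, in WT (blue) and mut (red); filled points have an adjusted p under 0.05. TGFBR1 at 72 h is at 0.89 in WT and 0.06 in mut, whereas TGFBR3 is at −1.75 and −1.54; the SMAD2 call in WT at 72 h reversed its sign with TMM factors.

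Of the type II receptors, TGFBR2 (ENSG00000163513, chr3:30606601-30694142, plus strand), which binds TGFβ, followed a shallow course. It stood at 485, 436, 548 and 418 CPM in WT libraries 27-1, 2-1, 27-2 and 2-2 under solvent, 374, 380, 474 and 380 CPM at 6 h, 454, 408, 469 and 422 CPM at 24 h, and 599, 578, 605 and 526 CPM at 72 h, so that 1 solvent library overlapped the 72 h group. In mut libraries 1-1, 65-1, 1-2 and 65-2 it was 489, 460, 522 and 474 CPM under solvent, 375, 346, 463 and 360 CPM at 6 h, 379, 378, 389 and 402 CPM at 24 h and 508, 450, 535 and 391 CPM at 72 h. TGFBR2 rose in WT at 72 h (log2 change 0.30 ± 0.10, adjusted p = 0.0104) and fell in mut at 6 h (−0.34 ± 0.10, adjusted p = 0.0280) and 24 h (−0.33 ± 0.10, adjusted p = 0.0125). Both mut calls were lost with TMM factors (−0.29 and −0.24, adjusted p = 0.0893 and 0.0904). The change at 6 h in WT was −0.23 ± 0.10 with an adjusted p of 0.0969, and 0.00964 with a replicate block for the series or 0.0263 without WT library 27-2 at 6 h.

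At 72 h TGFBR2 was lower in mut than in WT (log2 difference −0.30 ± 0.10, adjusted p = 0.0128), with 471 ± 64.1 against 577 ± 35.8 CPM (SD, n = 4). Without mut library 65-2 at 72 h the difference was −0.22 with an adjusted p of 0.0775. The interaction at 72 h was −0.35 ± 0.13 with an adjusted p of 0.0843, which became 0.00685 with the series block and 0.0472 with TMM factors. It also passed without the WT solvent library 27-2 or the mut 72 h library 1-2 (adjusted p = 0.0344 and 0.0376). It passed in 7 of 42 settings in all, and its adjusted p was 0.254 with summed replications. The WT rise at 72 h reached an adjusted p of 0.0502 without solvent library 2-2 and 0.0582 with summed replications, and the mut fall at 6 h one of 0.0526 to 0.145 without the mut solvent libraries 1-1, 1-2 or 65-2 or the mut 6 h libraries 1-1, 65-1 or 65-2.

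BMPR2 (ENSG00000204217, chr2:202376327-202567751, plus strand), the type II receptor of bone morphogenetic proteins, rose with TGFβ1 in both genotypes. In WT libraries 27-1, 2-1, 27-2 and 2-2 it went from 98.5, 89.8, 95.0 and 96.4 CPM under solvent to 124, 162, 124 and 153 CPM at 6 h, 182, 183, 167 and 174 CPM at 24 h and 154, 167, 151 and 176 CPM at 72 h. In mut libraries 1-1, 65-1, 1-2 and 65-2 it went from 94.4, 84.6, 101 and 90.8 CPM to 135, 109, 98.7 and 122 CPM at 6 h, 152, 145, 124 and 145 CPM at 24 h and 136, 138, 151 and 96.4 CPM at 72 h. All libraries at 24 h exceeded the solvent libraries of their genotype, whereas mut library 1-2 at 6 h and mut library 65-2 at 72 h stayed within the solvent range.

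The log2 change of BMPR2 in WT was 0.56 ± 0.11, 0.89 ± 0.11 and 0.77 ± 0.11 at 6, 24 and 72 h (adjusted p = 0.000589, 8.55e-08 and 1.09e-06). In mut it was 0.32 ± 0.11 at 6 h (adjusted p = 0.0689, 0.0294 with the series block, 0.0450 with TMM factors and 0.0213 to 0.0245 without mut 6 h library 1-2 or mut 72 h library 65-2), 0.61 ± 0.11 at 24 h (adjusted p = 0.000167) and 0.48 ± 0.11 at 72 h (adjusted p = 0.00169). BMPR2 was lower in mut than in WT at 24 h (−0.32 ± 0.11, adjusted p = 0.0199) and 72 h (−0.33 ± 0.11, adjusted p = 0.0145), but the interaction passed at neither time (−0.28 ± 0.15 and −0.29 ± 0.15, adjusted p = 0.273 and 0.223). The genotype difference at 72 h rested in part on the low mut library 65-2, without which it was −0.19 (adjusted p = 0.111), and it was −0.29 without WT library 2-2 (adjusted p = 0.0541). At 24 h the difference was −0.26 without mut library 1-2 (adjusted p = 0.0851).

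TGFBR3 (ENSG00000069702, chr1:91680343-91906335, minus strand), or betaglycan, a membrane proteoglycan that presents TGFβ to the type II receptor, had the largest change with TGFβ1 of the 10 genes. In WT libraries 27-1, 2-1, 27-2 and 2-2 it fell from 34.2, 30.2, 25.8 and 43.1 CPM under solvent to 20.2, 14.3, 14.7 and 14.5 CPM at 6 h, 10.9, 11.8, 8.07 and 12.9 CPM at 24 h and 10.1, 9.28, 10.0 and 9.42 CPM at 72 h. In mut libraries 1-1, 65-1, 1-2 and 65-2 it fell from 43.8, 39.5, 45.3 and 38.5 CPM to 19.8, 17.4, 34.2 and 19.3 CPM at 6 h, 12.96, 18.1, 14.7 and 14.9 CPM at 24 h and 15.5, 15.3, 12.8 and 14.1 CPM at 72 h. Every TGFβ1 library lay below every solvent library of its genotype.

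The log2 change of TGFBR3 in WT was −1.06 ± 0.16, −1.61 ± 0.18 and −1.75 ± 0.18 at 6, 24 and 72 h (adjusted p = 4.10e-05, 1.82e-08 and 8.78e-09). In mut it was −0.95 ± 0.15, −1.47 ± 0.16 and −1.54 ± 0.16 (adjusted p = 0.000232, 2.50e-07 and 6.32e-08). All 6 calls held in all 42 alternatives. The interaction at 72 h was 0.22 ± 0.24 (adjusted p = 0.618). The level in mut was above that in WT in each state, by 0.35 ± 0.14 under solvent (adjusted p = 0.105), 0.46 ± 0.17 at 6 h (0.0516), 0.49 ± 0.19 at 24 h (0.0493) and 0.56 ± 0.20 at 72 h (0.0239) on the log2 scale. The call at 24 h was marginal: it was lost without any 1 of 25 of the 32 libraries (adjusted p up to 0.190), all but WT solvent 27-2 and 2-2, WT 6 h 27-1, WT 24 h 2-2, mut 6 h 65-1 and 1-2 and mut 24 h 1-1, and also with TMM factors (0.0994) or a clone replicate block (0.0786). The solvent difference passed without WT solvent library 2-2 or mut 6 h library 1-2 (0.0287 to 0.0416), and that at 6 h without WT solvent 27-2 or 2-2, WT 6 h 27-1, WT 24 h 27-2 or mut 6 h 65-1 (0.0236 to 0.0444). That at 72 h was lost without the 72 h libraries 2-1, 2-2, 1-1 or 65-1 (adjusted p of 0.0507 to 0.0582) and with summed replications (0.0545).

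Of the 3 SMADs, only SMAD2 passed the test, by a small margin that depended on the scaling. SMAD2 (ENSG00000175387, chr18:47808957-47931146, minus strand) and SMAD3 (ENSG00000166949, chr15:67063763-67195173, plus strand) are the receptor-activated SMADs of the TGFβ branch, and SMAD4 (ENSG00000141646, chr18:51028528-51085045, plus strand) is their common partner. Over all 32 libraries the highest value of SMAD4 was 1.25 times its lowest and that of SMAD2 1.26 times, against 1.74 for SMAD3, 2.67 for TGFBR1 and 5.62 for TGFBR3.

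SMAD2 stood at 117, 116, 117 and 113 CPM in WT libraries 27-1, 2-1, 27-2 and 2-2 under solvent and at 107, 110, 101 and 103 CPM at 72 h. Its log2 change there was −0.14 ± 0.05 (adjusted p = 0.0172), smaller than the shift of −0.19 in the median of all genes, and with TMM factors it was 0.02 (adjusted p = 0.701). The difference mut minus WT at 72 h, 0.14 ± 0.05 (adjusted p = 0.0250), likewise became 0.05 with TMM factors (adjusted p = 0.358). The first call was also lost without WT library 27-2 at 72 h (adjusted p = 0.0597), and the second without the 72 h libraries 27-2, 2-2 or 1-2 (0.0682 to 0.0818).

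SMAD3 stood at 69.8, 59.5, 76.4 and 52.9 CPM in the same WT solvent libraries and at 76.2, 78.0, 87.9 and 77.9 CPM at 6 h. It was above its own solvent library in 4 of 4 WT series and 4 of 4 mut series at that time. The log2 change at 6 h was 0.32 ± 0.13 in WT (adjusted p = 0.0830, and 0.0121 with the series block) and 0.19 ± 0.12 in mut (adjusted p = 0.370). The WT clones stood apart under solvent and at 24 and 72 h more than at 6 h. Clone 27 had a mean of 73.1 CPM and clone 2 of 56.2 CPM under solvent, and 82.1 and 77.9 CPM at 6 h. In the same order the means were 81.4 and 59.2 CPM at 24 h and 79.5 and 63.8 CPM at 72 h. Without the WT solvent library 27-2 the change at 6 h was 0.40 (adjusted p = 0.0379). SMAD4 ranged from 80.7 to 101 CPM over all libraries and passed the test in no comparison, although with TMM factors its WT change at 72 h was 0.18 (adjusted p = 0.00743) instead of 0.02 ± 0.05.

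**Figure D2:**
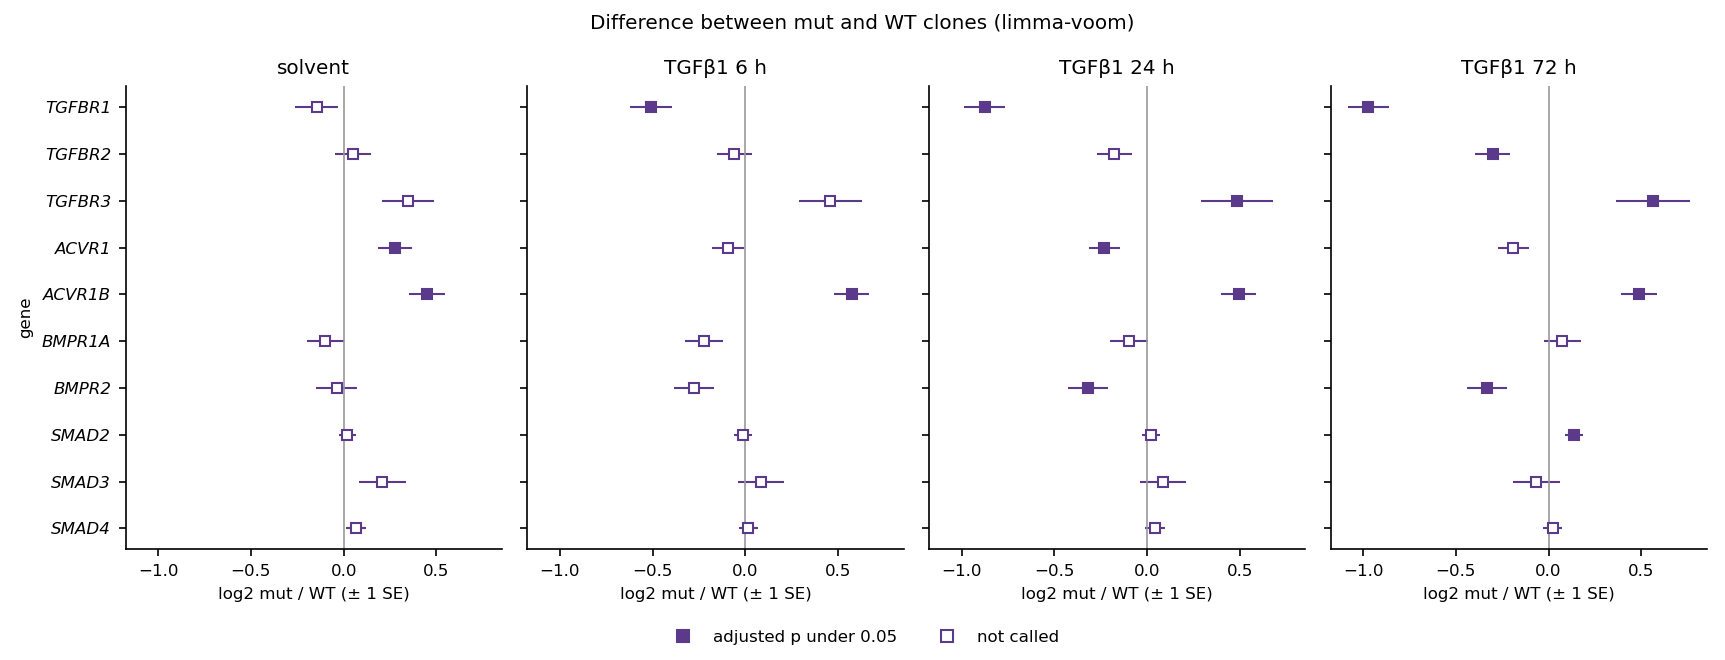
Log2 difference mut minus WT (± 1 SE) of each gene under solvent and at 6, 24 and 72 h with TGFβ1; filled squares have an adjusted p under 0.05. TGFBR1 moves from −0.14 under solvent to −0.97 at 72 h, and ACVR1B lies between 0.45 and 0.57 in all 4 states; the SMAD2 call at 72 h was lost with TMM factors.

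Counted over the 10 genes, under solvent 2 genes were higher in mut and none lower, where 6.38% and 6.32% of all tested genes were higher and lower. At 6 h 1 was higher and 1 lower (11.3% and 10.0% of all genes), at 24 h 2 higher and 3 lower (24.7% and 12.2%), and at 72 h 3 higher and 3 lower (26.0% and 13.2%). With TMM factors the split was 2 higher and 1 lower at 6 h, 1 and 4 at 24 h and 2 and 4 at 72 h. Over all 14865 tested genes it was then 1554 and 1619, 2386 and 2553, and 2776 and 2653 at these times. The median log2 difference was 0.06, −0.03, −0.04 and −0.02 over the 10 genes and −0.01, 0.02, 0.09 and 0.10 over all genes in these 4 states. In the interaction, no gene of the 10 passed at 6 h (limma-voom, 0.0740% of all genes), where 2 had an unadjusted p under 0.05 and edgeR and DESeq2 also called 0, while TGFBR1 and ACVR1 passed downwards at 24 h and at 72 h, where 1.93% and 2.92% of all genes passed in that direction. The median interaction was −0.07 and −0.16 over the 10 genes and 0.08 and 0.10 over all genes at these times.

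Ratios between genes of the same library do not depend on the scaling. The log2 ratio of counts per kilobase of TGFBR1 to TGFBR2 in WT was −3.61 ± 0.16 under solvent (SD, n = 4), −3.05 ± 0.23 at 6 h, −2.62 ± 0.19 at 24 h and −3.02 ± 0.26 at 72 h. In mut it was −3.80 ± 0.13, −3.49 ± 0.22, −3.32 ± 0.16 and −3.70 ± 0.08 in the same order. The mean ratio of this type I to this type II receptor was highest at 24 h in both genotypes, and at 24 h and at 72 h no mut library reached the lowest WT library. TGFBR3 relative to TGFBR2 fell from −4.17 ± 0.46 to −6.22 ± 0.07 in WT and from −3.87 ± 0.06 to −5.35 ± 0.26 in mut between solvent and 72 h, again without overlap between solvent and 72 h libraries. The ratio of SMAD3 to SMAD2 was 1.01 ± 0.21 in WT and 1.19 ± 0.08 in mut under solvent, and 1.41 ± 0.15 and 1.502 ± 0.12 at 6 h, where all WT and all mut libraries exceeded the solvent libraries of their genotype. These ratios are given as a description and were not tested.

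The genes varied together to different degrees. Over the 32 libraries, which share treatments, clones and library totals, log2 CPM of ACVR1 and BMPR2 correlated with a Pearson r of 0.80, TGFBR1 and BMPR2 with 0.79, and TGFBR1 and ACVR1 with 0.65, whereas TGFBR3 and BMPR2 had an r of −0.87. Among 9644 other genes with a mean of at least 10 CPM, the gene most like TGFBR1 was MLXIP (r = 0.95), that most like ACVR1 was TES (0.92), that most like BMPR2 was ANO6 (0.97), and that most like TGFBR3 was SYPL1 (0.96). For ACVR1B it was ERRFI1 (0.93), for TGFBR2 PIP4K2A (0.83), for BMPR1A NUS1 (0.82), for SMAD2 GPBP1 (0.85), for SMAD4 PPP3R1 (0.82) and for SMAD3 RELB (0.64).

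Because the edited gene encodes an AP-1 subunit, the promoter windows of the 10 genes in the RefSeq table (GRCh38.p14, 250 bases before to 50 after each annotated start) were searched on both strands for TGANTCA, the AP-1 core motif. All 10 genes had at least 1 window, 26 in all, and 3 of the 26 held the motif, beside 7.71% of all 35116 windows. None of the 8 TGFBR1 windows did. The SMAD palindrome GTCTAGAC was in no member window and in 0.202% of all windows. The 3 stretches with an AP-1 match are shown with the match in capitals, 5′ to 3′ on the strand of the gene, and each belongs to 1 of several annotated starts (1 of 3 for ACVR1, 1 of 2 for TGFBR2 and 1 of 5 for SMAD3).
ACVR1, chr2:157838631-157838714, minus strand, match beginning 24 bases before the start: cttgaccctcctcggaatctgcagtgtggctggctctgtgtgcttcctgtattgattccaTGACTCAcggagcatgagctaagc
TGFBR2, chr3:30606535-30606601, plus strand, match beginning 6 bases before the start: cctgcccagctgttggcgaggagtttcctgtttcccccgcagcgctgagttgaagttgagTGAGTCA
SMAD3, chr15:67125675-67125703, plus strand, match beginning 56 bases before the start: actgactcctcTGAGTCAtgcccagggga
A match describes the letters of the window and no binding was measured in these libraries.

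The other parts of the pathway were described with lists of related genes, whose counts at 72 h stand beside shares of all tested genes of 13.9% higher and 38.4% lower in WT, 7.81% and 16.3% in mut, and 26.0% and 13.2% in mut against WT. With TMM factors, 3189 of the 14865 tested genes rose and 3459 fell in WT at 72 h. In mut against WT, 2776 were then higher and 2653 lower. Of 11 tested other receptors and coreceptors, 2 rose and 2 fell in WT at 72 h (4 and 1 with TMM factors, median log2 change −0.11), and 4 were lower in mut than in WT at that time and none higher. NRP1, a coreceptor, was lower in mut under solvent (log2 difference −1.48 ± 0.20, adjusted p = 5.18e-06) and at 72 h (−0.89 ± 0.18, adjusted p = 0.000257), and it rose in mut at 72 h (1.02 ± 0.20, adjusted p = 0.000321). Its WT change at 72 h was 0.44 ± 0.18 (adjusted p = 0.0398), which was lost without any 1 of the solvent libraries 27-1, 2-1 and 2-2 or the 72 h libraries 27-2 and 2-2 (0.0615 to 0.135). NRP2 fell in WT at 72 h (−0.54 ± 0.13, adjusted p = 0.000655). It was lower in mut already under solvent (−0.69, adjusted p = 0.000360) and also at 72 h (−0.42 ± 0.13, adjusted p = 0.0129, and −0.28 with 0.0910 without WT library 27-2). RGMB, a coreceptor of bone morphogenetic proteins, was lower in mut at 72 h (−0.34 ± 0.09, adjusted p = 0.00279). BAMBI, a decoy receptor without kinase activity, changed by 0.65 ± 0.22 in WT (adjusted p = 0.0168) and by 0.19 ± 0.22 in mut (adjusted p = 0.578). Without WT library 27-1 at 72 h its WT change was 0.37 (adjusted p = 0.111). None of the 11 tested genes of this list, BAMBI included, passed in the interaction at 72 h.

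Among the 5 other SMADs, 2 rose and 3 fell in WT at 72 h (2 and 2 with TMM factors, median log2 change −0.21), and 2 rose and 1 fell in mut (median −0.03). SMAD7, the inhibitory SMAD that binds the type I receptor, rose by 1.29 ± 0.10 in WT (adjusted p = 5.31e-11) and 0.69 ± 0.09 in mut (adjusted p = 3.18e-06), and its interaction at 72 h was −0.59 ± 0.14 (adjusted p = 0.00447). SMAD6, the other inhibitory SMAD, stayed near 1 CPM or below (0.101 to 0.168 CPM under solvent and 0.243 to 1.24 CPM at 72 h in WT) and rose in both genotypes (2.03 ± 0.60 in WT and 1.76 ± 0.51 in mut, adjusted p = 0.00570 and 0.0113). Without mut solvent library 65-2, the mut change of SMAD6 was 1.46 (adjusted p = 0.0562). SMAD1, which bone morphogenetic protein receptors activate, fell in WT (−0.51 ± 0.07, adjusted p = 5.23e-07) and in mut (−0.48 ± 0.06, adjusted p = 2.19e-06) and was higher in mut at 72 h (0.30 ± 0.07, adjusted p = 0.000939). SMAD9, of the same branch, fell in WT (−0.73 ± 0.14, adjusted p = 0.000106), while its mut change was −0.13 (adjusted p = 0.490). It was higher in mut at 72 h (0.61 ± 0.14, adjusted p = 0.00115). The SMAD9 interaction at 72 h was 0.60 (adjusted p = 0.0372). That call was lost without any 1 of 10 libraries (0.0510 to 0.0885) and with TMM factors.

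Of the 21 genes for adaptors, corepressors and turnover, 9 rose and 9 fell in WT at 72 h (9 and 4 with TMM factors, median log2 change −0.05) and 7 rose and 2 fell in mut (median 0.02). The 9 that fell were a share near that of all genes. PMEPA1, which sequesters SMAD2 and SMAD3, rose by 3.51 ± 0.25 in WT (adjusted p = 1.39e-11), SKIL, a SMAD corepressor, by 1.97 ± 0.18 (adjusted p = 1.32e-09) and DAB2, an endocytic adaptor of the receptors, by 1.67 ± 0.24 (adjusted p = 1.27e-06). DAB2 was lower in mut than in WT at 72 h (−1.14 ± 0.21, adjusted p = 7.57e-05), as were FKBP1A, which binds type I receptors and holds them inactive (−0.43 ± 0.07, adjusted p = 4.77e-05), and SMURF1, a ubiquitin ligase of the receptors and SMADs (−0.78 ± 0.08, adjusted p = 2.31e-08). SMURF1 rose in WT at 72 h (0.76 ± 0.08, adjusted p = 1.75e-08) while its mut change was 0.14 ± 0.09 (adjusted p = 0.251), and the interaction was −0.62 ± 0.12 (adjusted p = 0.00119).

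Known responses to TGFβ1 were present in both genotypes. Of 11 tested TGFβ-responsive genes, 10 rose and 1 fell in WT at 72 h (10 and none with TMM factors) and 10 rose in mut, with a median log2 change of 1.77 and 1.60, beside 13.9% and 7.81% of all genes that rose. SMAD7, SKIL and PMEPA1 are in this list and were also counted in the lists above. In mut against WT at 72 h 2 were higher and 4 lower (1 and 5 with TMM factors), and in the interaction 3 were lower. The extracellular matrix genes FN1 and TGFBI rose by 4.33 ± 0.47 and 3.56 ± 0.24 in WT (adjusted p = 1.65e-08 and 7.12e-12). TGFBI also rose in mut at 72 h (2.28, adjusted p = 6.39e-08), but to a lower level than in WT (difference −1.75 ± 0.25, adjusted p = 2.54e-06). The interaction of TGFBI at 72 h was −1.29 ± 0.34 (adjusted p = 0.0120), and ID1, a target of the bone morphogenetic protein branch, was higher in mut (0.92 ± 0.14, adjusted p = 5.26e-06).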

How the data were processed

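Each library was made with the TruSeq v2 kit, which keeps no strand information, and per the labels and the study's methods the reads were trimmed with Trimmomatic and aligned with STAR to the Ensembl GRCh38 genome (versions not given in the sources used here). The authors deposited whole-number counts per Ensembl gene, without normalization, for 17788 genes. Identifiers were matched to GENCODE release 44, which named 17763 of them. Exons of none of the 10 genes overlapped those of another named gene of the count table. Overlap with genes outside that table was not searched.

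Counts were analysed with limma-voom (limma 3.58.1, R 4.3.3) in 1 fit over all 32 libraries with a mean per genotype and time, scaled by library size. The filter filterByExpr of edgeR (minimum count 10, minimum total 15) left 14865 genes, and p-values were adjusted over all of them by the Benjamini-Hochberg method with a threshold of 0.05. Alternatives were TMM factors, the quasi-likelihood test of edgeR 4.0.16, the Wald test of DESeq2 1.42.0, other filters, summed replications of a clone, left-out libraries or series, and a series or clone block. Libraries of the same series come from the same clone and deviated together (mean correlation 0.303 over 48 pairs, lowest 0.0283), against 0.0184 for libraries of the same clone in the other replication, and so the series block was taken as a pairing. These deviations are from group means and cancel out within a group, so unrelated libraries tend to correlate negatively. The value of 0.0184 therefore does not show that the replications of a clone are independent. Within groups, no pair of libraries came close to sampling noise (chi-square divided by its degrees of freedom at least 10.5), and each was counted as its own sample. A floor of 3 counts equals 0.0549 to 0.0756 CPM, which covers counting error only. RPKM used merged exon lengths of GENCODE. The choice of genes, lists and tests was made with earlier results of these data known. Of the related lists, the text names at most the 3 called genes with the largest differences in WT and between genotypes at 72 h (mean of at least 1 CPM), and always SMAD6, SMAD7 and BAMBI, and 1 gene that this rule names is not reported here. The use of MANE Select lengths was added after seeing the data.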

Additional observations from a re-analysis of the deposited data

Results flagged for a closer look

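In 6 of 80 groups of 4 libraries examined, 1 library lay far from the other 3 by Dixon's ratio at the 95% level, where chance alone marks about 1 in 20 groups. At 6 h in WT, library 27-1 had 44.9 CPM of TGFBR1 against 59.8 to 61.5 CPM in the others, and 20.2 CPM of TGFBR3 against 14.3 to 14.7 CPM. Both values lie toward the solvent level of WT cells. At the same time, WT library 27-2 had 474 CPM of TGFBR2 against 374 to 380 CPM, and 87.9 CPM of SMAD3 against 76.2 to 78.0 CPM. Mut library 1-2 at 72 h had 119 CPM of SMAD2 against 114 to 115 CPM, and mut library 65-1 under solvent had 86.8 CPM of SMAD4 against 99.4 to 101 CPM.

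The change with TGFβ1 differed between genotypes, by the tested interaction, for TGFBR1 (−0.73 on the log2 scale at 24 h and −0.83 at 72 h) and for ACVR1 (−0.51 and −0.47). Each interaction had the same sign in every alternative run.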

How the results depend on the processing

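Of 4205 alternative values for 101 results, 3988 kept their direction and side of the threshold, 148 were no longer called, 55 became called and 14 changed sign. The log2 change of SMAD2 in WT at 72 h turned sign with TMM factors (0.0234), the edgeR test (0.0234), DESeq2 (0.0380) and the series replicate block with TMM factors (0.0240). The uncalled change of TGFBR1 in mut at 6 h turned with TMM factors (0.0251), edgeR (0.0171), DESeq2 (0.0236), the series replicate block with TMM factors (0.0256) and without series 1-2 (0.0745), and ranged from −0.101 to 0.0605 as single libraries were left out. Over the same omissions the uncalled change of TGFBR1 in mut at 72 h ranged from −0.0234 to 0.152, and that of SMAD4 in WT at 72 h from −0.0195 to 0.0499. The cause was not tested.

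With the replications of a clone summed, the number of the 10 genes called went from 4 to 3 in WT at 6 h and from 6 to 4 in WT at 72 h (without TGFBR1 at 6 h and TGFBR2 and SMAD2 at 72 h), from 2 to 1 in mut at 6 h, from 4 to 2 in mut at 24 h, from 2 to 1, 5 to 2 and 6 to 3 between genotypes under solvent, at 24 h and at 72 h, and from 2 to 0 and 2 to 1 in the interaction at 24 and 72 h. Fewer samples enter that fit. With the series replicate block, with or without TMM factors, 4 genes were called in mut at 6 h. With the clone replicate block or without series 27-2 or 1-2, 1 gene was called between genotypes under solvent and 3 at 24 h. Without series 1-2 the interaction at 24 h called 1, and DESeq2 called 4 between genotypes at 6 h. Leaving out 1 library gave 3 to 4, 4 to 5 and 5 to 6 calls in WT at 6, 24 and 72 h, 1 to 3, 3 to 5 and 2 to 3 in mut, 1 to 3, 2 to 5, 2 to 5 and 3 to 7 between genotypes under solvent and at 6, 24 and 72 h, and 0, 2 and 2 to 3 in the interaction. The share of all tested genes called in each of these settings is not given here. These shifts are therefore not read as particular to the 10 genes. With library-size scaling, the blocks changed none of the calls given for the 10 genes other than those named beside the results.

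Each genotype is 2 clones, so a difference between genotypes and a difference between these clones cannot be told apart. Totals of 39702412 to 54651906 counts per library set the counting precision.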
